A study of Macaca fascicularis and Macaca mulatta with 24 samples.

Results

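The metabotropic glutamate receptors GRM2, GRM3, GRM4, GRM5, GRM6, GRM7 and GRM8 were read in cortex biopsies of cynomolgus macaques that had an experimental stroke. Their probes were found by exact match of a gene symbol in the array files, in the gene name or in brackets in the description. The match gave 7 of 15787 gene symbols in the array files and 8 of 20217 gene probes, 1 for each receptor and 2 for GRM7, which are called GRM7 A and GRM7 B here. Each probe lay on the array as 2 spots.

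The stroke was made by blocking the right middle cerebral artery (MCAO) of every animal, so the placebo animals carried it too, and no animal without occlusion was analysed here. The right cortex is the ischemic side and the left cortex the non-ischemic side of the same kind of animal. Treated animals received 2.6 mg/kg TatNR2B9c into a vein 5 min after the occlusion, and the others received placebo. TatNR2B9c is a peptide in which a cell-penetrating Tat segment carries the tail of the NMDA receptor subunit NR2B, designed to uncouple that receptor from the scaffold protein PSD-95. Biopsies of cortex were frozen at 6 h or 1 h. The 8 groups of 3 arrays were thus TatNR2B9c right 6 h, placebo right 6 h, TatNR2B9c left 6 h, placebo left 6 h, TatNR2B9c right 1 h, placebo right 1 h, TatNR2B9c left 1 h and placebo left 1 h. A right and a left array with the same number were read as 1 animal, which the labels imply by the shared number. Age, sex and strain were not given in the sources used here.

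These receptors are G protein-coupled receptors for glutamate, the main excitatory transmitter of the cortex, and they tune synapses slowly where ion channel receptors act fast. GRM5 belongs to group I, which couples to Gq, raises calcium in the cell and is held at the edge of the postsynaptic density by HOMER and SHANK proteins. GRM2 and GRM3 form group II, and GRM4, GRM6, GRM7 and GRM8 form group III. Both couple to Gi/o, lower cyclic AMP and mostly act as brakes on transmitter release. GRM3 is also made by astrocytes, and GRM6 is known from the ON bipolar cells of the retina.

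All 8 probes have 60 bases and read the minus strand of the rhesus macaque build rheMac2, whereas the samples came from cynomolgus macaques, so a base that differs between the species can lower a signal. The coordinates are those of the array files, which do not say whether a probe lies in an exon, an intron or an untranslated region. The GRM5 probe lies at chr14:86696856-86696915, the GRM2 probe at chr2:84721104-84721163 and the GRM3 probe at chr3:130400570-130400629. The GRM4 probe lies at chr4:33720271-33720330 and the GRM6 probe at chr6:175596227-175596286. GRM7 A lies at chr2:53263287-53263346 and GRM7 B at chr2:53217440-53217499, 45847 bases apart, and the array annotation assigns them to different transcript variants of the gene. The GRM8 probe lies at chr3:163980043-163980102. The probe letters of GRM5 and GRM2 are shown whole, since they show what part of a transcript could be read, and the last 30 letters are shown for GRM3, GRM7 and GRM8, whose values the results turn on. Capitals mark a closing TGA in GRM2, which is the 1 stop codon of its reading frame, and the polyadenylation signal AATAAA.
GRM5: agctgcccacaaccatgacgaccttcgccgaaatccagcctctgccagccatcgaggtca
GRM2: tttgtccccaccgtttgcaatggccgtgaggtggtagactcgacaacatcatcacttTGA
GRM3: ctgagcattggtgacagggtctgacagggt
GRM7 A: ctgtaccacacacatAATAAAgtttaagaa
GRM7 B: caattctgtgatattgtccaagaatgtatc
GRM8: gggttgtgctaaaAATAAAtgcaatgattg
The GRM5 letters have no stop codon in 2 of 3 forward frames. The motif AATAAA was searched on the printed strand only, and it stood in the last 30 bases of 11.3% of the kept probes. A match describes the letters of the probe and does not show that the site is used.

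Each array compared cortex RNA in the dye Cy5 with a common reference RNA of rhesus macaque in Cy3, and a value is the log2 ratio of cortex over reference unless Cy5 alone is named. Cy5 alone is the cortex channel without the reference, quantile normalised over the 24 arrays. On the array 6 of 6 marker genes of cortical excitatory neurons were well above background on all 24 arrays. So were ZIC2 and NEUROD1, listed as markers of cerebellar granule cells, and TTR, listed for meninges and choroid plexus. Detection alone therefore does not test the tissue label. By slide, scan day and software version in the file headers, the arrays fell into 3 separate parts that match the groups (placebo 1 h, placebo 6 h and TatNR2B9c). These parts are called campaigns here. The reference differed among them: in Cy3 the share of probes well above background was 51.8% to 99.3% over 12 TatNR2B9c arrays, 84.3% to 92.5% over the placebo arrays of 6 h and 14.0% to 51.7% over those of 1 h. In Cy5 the share was 44.0% to 97.7% over all arrays. Campaign therefore cannot be told apart from treatment, nor from time under placebo, and values in Cy5 alone are given beside the ratios described. Under TatNR2B9c scan day went partly with time. All its 1 h arrays and array 3 of each side at 6 h were scanned on day 4, and arrays 1 and 2 of 6 h on day 5 (slide 10). The ratios also divide by a dim reference signal on many arrays. In Cy3 the probe of GRM3 was well above background on all 24 arrays, those of GRM4, GRM7 B and GRM7 A on 17, 16 and 15, that of GRM5 on 14, those of GRM2 and GRM8 on 12 and that of GRM6 on 3. Replicate arrays are separate animals by the labels, and the p-values measure the spread between these 3 samples a group only.

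In placebo animals 7 of 8 receptor probes had a higher ratio at 6 h than at 1 h in the left cortex and 4 of 8 in the right cortex. These comparisons called many probes of the array, since 31.1% of all probes rose and 54.2% passed in either direction on the left, and 21.7% rose and 40.9% passed on the right (limma, Benjamini-Hochberg adjusted p under 0.05). In Cy5 alone only GRM4 passed on either side, where 7.24% of probes rose on the left and 12.7% on the right, and its left call was lost without placebo left 1 h array 3 (limma adjusted p = 0.11). TatNR2B9c against placebo called 5 of 8 probes, all lower, in the left cortex at 6 h, where 13.8% of all probes fell and 24.6% passed in either direction. These calls rest on the spread pooled over all 24 arrays. Fitted on the compared groups alone, 0 of the 5 probes passed (limma adjusted p of 0.0636 for GRM8 to 0.216 for GRM4), where 1 of 17213 probes did, and 0 of the 5 passed with arrays brought to equal spread or in the extraction software's processed signals, where 0.093% and 0.227% of all probes passed. GRM7 A and GRM8 fell there in Cy5 alone too, in which 11.3% of probes fell. No receptor probe passed between right and left cortex in any of 4 sets of animals, where 0% of all probes passed.

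**Figure D1:**
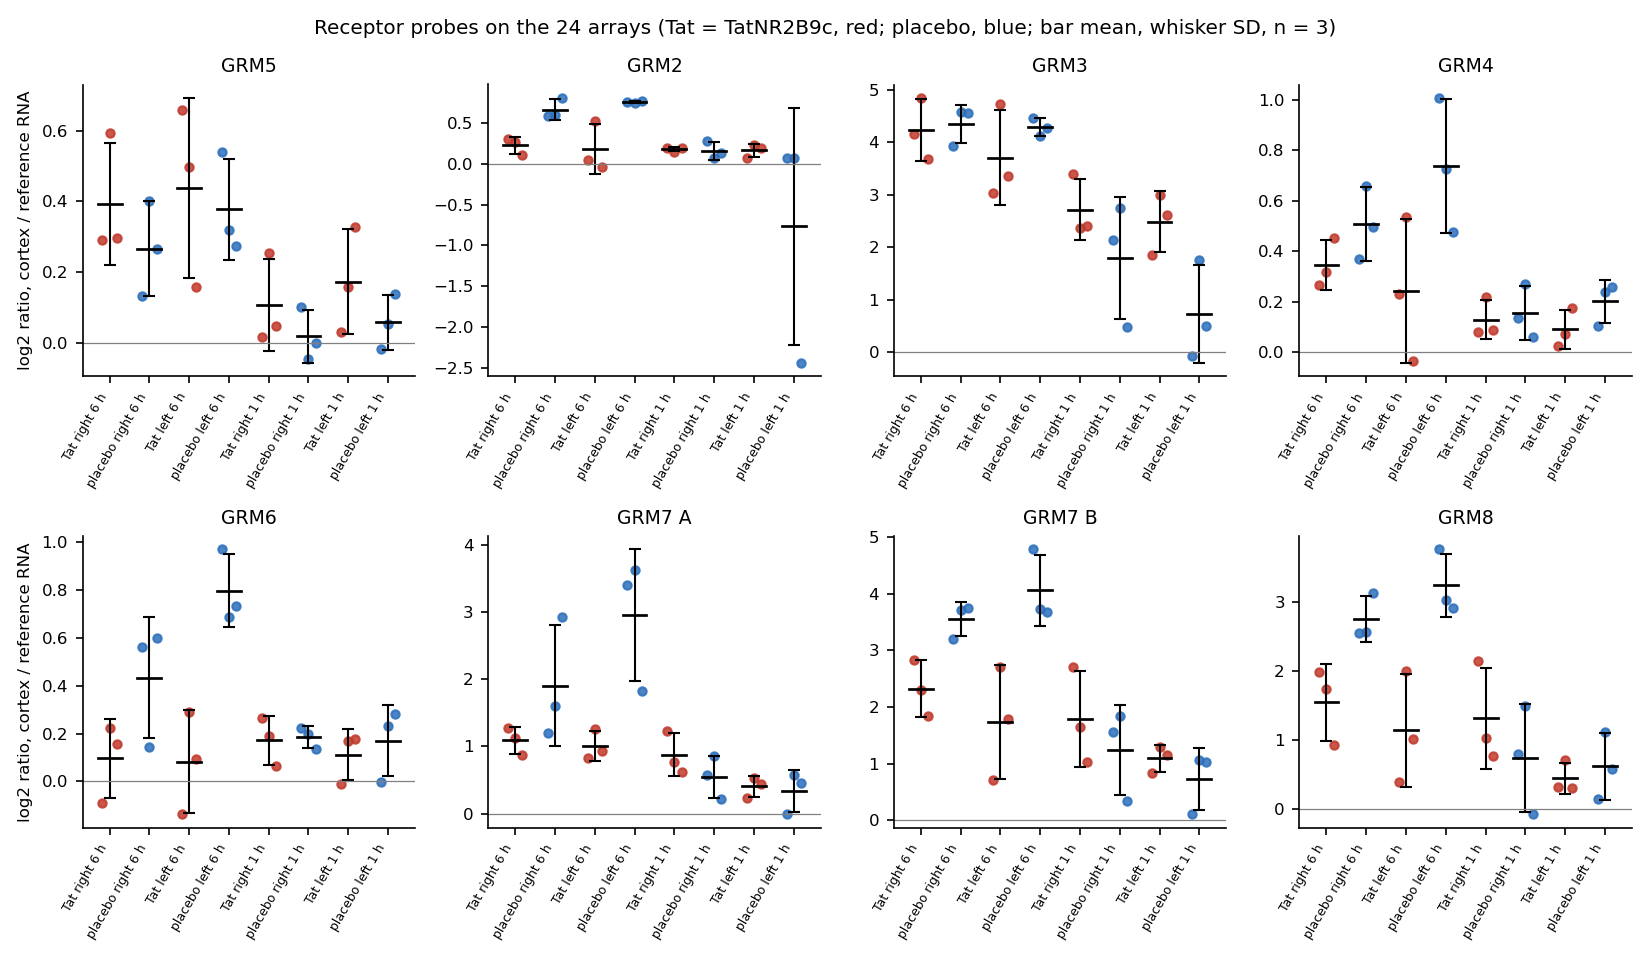
Log2 ratio of cortex over reference RNA (vertical axis) for each receptor probe on the 24 arrays in 8 groups (horizontal axis), with TatNR2B9c (Tat) in red and placebo in blue. Bars are means and whiskers SD of 3 arrays. The placebo left 6 h arrays of GRM7 B lie between 3.67 and 4.79, above all TatNR2B9c left 6 h arrays, and the GRM2 array at −2.44 stands alone.

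GRM5 is the group I receptor of the set and the partner of the HOMER scaffolds. Its ratio was 0.29, 0.59 and 0.30 in TatNR2B9c right cortex and 0.13, 0.40 and 0.27 in placebo right cortex at 6 h. The left cortex at 6 h had 0.66, 0.50 and 0.16 under TatNR2B9c and 0.54, 0.32 and 0.27 under placebo. At 1 h all 12 arrays lay between −0.05 and 0.33. The 6 h arrays were thus a little higher than the 1 h arrays, with overlap under TatNR2B9c on the left and none on the other 3 sets. No comparison passed, and the nearest was 6 h minus 1 h in placebo left cortex, at a log2 difference of 0.32 (SE 0.14, limma adjusted p = 0.0541), with 0.31 in Cy5 alone (adjusted p = 0.835). GRM5 was well above background in Cy5 on 19 of 24 arrays. TatNR2B9c left 6 h array 1 stood apart, with a Cy5 level of 11.69 on the log2 scale against 6.68 to 8.45 on the other 23 arrays. Both of its spots were bright in both dyes, so that its ratio stood out far less, though at 0.66 it was the highest of the 24.

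GRM2 is a group II receptor that sits mainly on nerve endings. Its ratio at 6 h was 0.30, 0.27 and 0.11 in TatNR2B9c right cortex and 0.59, 0.60 and 0.81 in placebo right cortex. On the left at 6 h it was 0.05, 0.53 and −0.04 under TatNR2B9c and 0.75, 0.74 and 0.77 under placebo. The placebo arrays lay above the TatNR2B9c arrays on both sides, but the differences did not pass, being −0.44 (SE 0.41, adjusted p = 0.566) for the right and −0.57 (SE 0.41, adjusted p = 0.321) for the left cortex, with −0.22 and −0.24 in Cy5 alone. At 1 h the ratio was 0.07, 0.07 and −2.44 in placebo left cortex and 0.06 to 0.28 in the other 3 groups. The 6 h arrays of placebo left cortex were higher than the 1 h arrays by 1.52 (SE 0.41, adjusted p = 0.00443), and by 0.68 (adjusted p = 0.000825) without placebo left 1 h array 3. On that array the 2 spots of the probe disagreed, with raw Cy5 signals of 28334 and 125.0. In Cy5 alone the same difference was −1.05 (adjusted p = 0.151), and without that array it was −0.07 (adjusted p = 0.907), so most of its size rested on that array. That array also set the SE of GRM2 in every comparison. Without it the TatNR2B9c minus placebo difference on the left at 6 h kept its size and passed (−0.57, SE 0.13, adjusted p = 0.00411), while that on the right did not (adjusted p = 0.0575), and 6 h minus 1 h in placebo right cortex passed at 0.51 (adjusted p = 0.00405), against an adjusted p of 0.334 with it.

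GRM3, the group II receptor of neurons and astrocytes and the target of the peptide transmitter NAAG, had a ratio at 6 h of 4.16, 4.85 and 3.68 in TatNR2B9c right cortex and 3.93, 4.58 and 4.55 in placebo right cortex. On the left at 6 h it was 3.04, 4.73 and 3.35 under TatNR2B9c and 4.47, 4.13 and 4.28 under placebo. The treatments overlapped on both sides at 6 h, with a TatNR2B9c minus placebo difference of −0.12 on the right (adjusted p = 0.925) and −0.58 (adjusted p = 0.473) on the left. In Cy5 alone they were −0.04 and 0.24, so the left one had the opposite sign.

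At 1 h the GRM3 ratio was 3.39, 2.36 and 2.40 in TatNR2B9c right cortex and 2.15, 2.74 and 0.49 in placebo right cortex. On the left at 1 h it was 1.86, 2.99 and 2.62 under TatNR2B9c and −0.06, 1.76 and 0.50 under placebo. The left groups did not overlap, which held for 1 of 8 receptor probes and 17.1% of all probes, yet the difference of 1.76 (SE 0.56, adjusted p = 0.171) did not pass, and in Cy5 alone it was −0.73 (adjusted p = 0.0674), the opposite sign. Under placebo GRM3 was higher at 6 h than at 1 h by 2.56 on the right (SE 0.56, adjusted p = 0.00144) and by 3.56 on the left (SE 0.56, adjusted p = 5.26e-05), an 11.8-fold ratio on the left. Under TatNR2B9c the same contrast was 1.51 on the right (adjusted p = 0.156) and 1.22 on the left (adjusted p = 0.289), and neither passed, with 0.19 and 0.38 in Cy5 alone on the right and the left. On the 1 slide that held both times of TatNR2B9c animals, 6 h minus 1 h was 1.28 on the right and 0.73 on the left, from 1 array of each. In Cy5 alone the same arrays gave −0.35 on the right and −0.58 on the left, the opposite sign.

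The reference channel moved with the GRM3 ratio. In Cy3 the probe read 7.07 to 8.65 (log2) over 12 TatNR2B9c arrays, 7.48 to 7.77 over placebo arrays of 6 h and 8.71 to 11.58 over placebo arrays of 1 h. In Cy5 it read 12.56 to 13.12 under placebo at 6 h and 13.11 to 13.49 under placebo at 1 h. The cortex signal of GRM3 was thus slightly lower at 6 h than at 1 h, by 0.24 on the right (adjusted p = 0.58) and 0.58 on the left (adjusted p = 0.172), against the direction of the ratio. The part of the reference in the ratio's change was not tested.

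**Figure D2:**
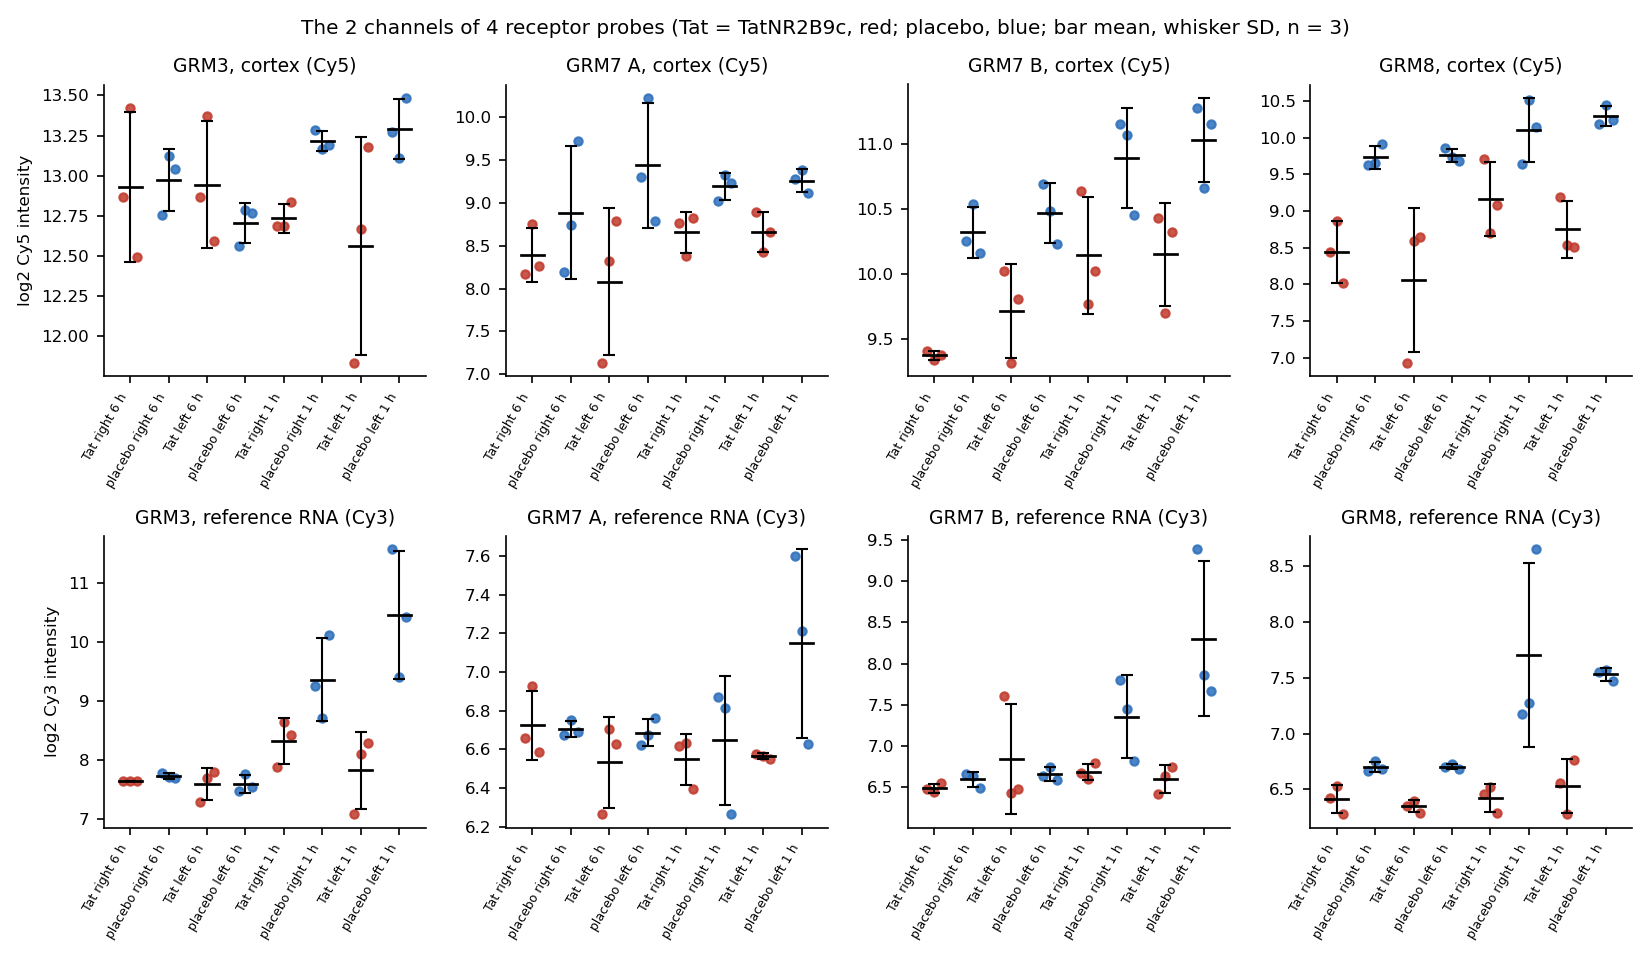
Normalised log2 intensity in Cy5 (cortex, upper row) and Cy3 (reference, lower row) of GRM3, GRM7 A, GRM7 B and GRM8 on the 24 arrays by group, with TatNR2B9c (Tat) in red, placebo in blue, bars at the mean and whiskers for the SD of 3 arrays. For GRM3 the Cy3 signal reaches 11.58 on placebo 1 h arrays and is at most 7.77 on placebo 6 h arrays, whereas Cy5 lies between 11.84 and 13.49 on all 24 arrays.

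GRM4 is a group III receptor best known from the parallel fibre endings of the cerebellum. At 6 h its ratio was 0.26, 0.32 and 0.45 in TatNR2B9c right cortex and 0.37, 0.66 and 0.50 in placebo right cortex. On the left at 6 h it was 0.23, 0.54 and −0.04 under TatNR2B9c and 1.01, 0.73 and 0.48 under placebo. The left groups overlapped, and the difference of −0.49 (SE 0.14, adjusted p = 0.0186) passed. It did not pass without TatNR2B9c left 6 h array 1 (adjusted p = 0.0534) or array 3 (−0.35, adjusted p = 0.103) or placebo left 6 h array 1 (−0.36, adjusted p = 0.108), and in Cy5 alone it was 0.01 (adjusted p = 0.981).

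The GRM4 ratio at 1 h lay between 0.02 and 0.27 on all 12 arrays. Under placebo it was higher at 6 h than at 1 h by 0.54 on the left (SE 0.14, adjusted p = 0.00428) and by 0.35 on the right (adjusted p = 0.0563). The Cy5 channel gave a difference in the same direction, with levels of 7.87, 8.30 and 8.85 in placebo left cortex at 6 h and 7.52, 7.57 and 7.58 at 1 h. On the right Cy5 levels were 8.45, 8.93 and 8.67 at 6 h and 7.46, 7.30 and 7.52 at 1 h. No 6 h array overlapped with a 1 h array on either side, and the differences in Cy5 alone were 0.79 on the left (adjusted p = 0.0452) and 1.26 on the right (adjusted p = 0.0016). Without placebo left 1 h array 3 the left one was 0.80 and did not pass (adjusted p = 0.11). The reference signal of GRM4 in Cy3 was higher at 6 h as well. Its placebo mean was 7.14 at 6 h and 6.26 at 1 h on the left, and 7.34 and 6.41 on the right. A shift shared by both channels was not tested. In the extraction software's own ratios the left difference was −0.31, so the sign of the GRM4 change depends on the scaling.

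GRM6 was dim, well above background in Cy5 on 11 of 24 arrays and in Cy3 on 3. It was well above background on all 3 arrays of placebo left cortex at 6 h and of placebo right cortex at 1 h, and on none in TatNR2B9c left cortex at 6 h or on either side of TatNR2B9c cortex at 1 h. Its ratio at 6 h was −0.14, 0.29 and 0.09 in TatNR2B9c left cortex and 0.97, 0.69 and 0.73 in placebo left cortex, with no overlap. The ratio differed by −0.72 (SE 0.14, adjusted p = 0.00212). The TatNR2B9c arrays give only a bound for the cortex signal, and that bound depended on the scaling of the channel, so no fold is given. With both dyes scaled between arrays the log2 means were 6.32 under TatNR2B9c and 6.82 under placebo. In Cy5 alone they were 6.43 under TatNR2B9c and 6.74 under placebo, a difference of −0.31 (adjusted p = 0.341). On the right at 6 h the ratio was −0.09, 0.22 and 0.16 under TatNR2B9c and 0.56, 0.14 and 0.60 under placebo, which overlapped. The placebo 6 h minus 1 h difference was 0.63 on the left (SE 0.14, adjusted p = 0.0012) and 0.25 on the right (adjusted p = 0.167), with −0.37 and −0.19 in Cy5 alone. TRPM1, the channel that GRM6 controls in retinal ON bipolar cells, was well above background on 15 arrays.

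GRM7 is the group III receptor of the release zone itself, with a low affinity for glutamate. GRM7 A had a ratio at 6 h of 0.83, 1.26 and 0.94 in TatNR2B9c left cortex and 3.40, 3.63 and 1.83 in placebo left cortex. GRM7 B had 0.71, 2.71 and 1.79 in TatNR2B9c left cortex and 4.79, 3.73 and 3.67 in placebo left cortex. Every placebo array was above every TatNR2B9c array on both probes. TatNR2B9c minus placebo was −1.95 for GRM7 A (SE 0.40, adjusted p = 0.00276) and −2.33 for GRM7 B (SE 0.50, adjusted p = 0.00361), which is 5.02-fold lower for GRM7 B under TatNR2B9c. In Cy5 alone GRM7 A passed too, at −1.36 (adjusted p = 0.0269), and GRM7 B was at −0.75 (adjusted p = 0.0567). The GRM7 A levels in Cy5 overlapped, with 7.13, 8.33 and 8.79 under TatNR2B9c and 9.31, 10.23 and 8.78 under placebo. TatNR2B9c left 6 h array 1, the lowest, had 97.7% of probes well above background in Cy5 and 99.3% in Cy3. For GRM7 B that array was the highest of its group in Cy5 (10.02), and its ratio of 0.71 came with a Cy3 level of 7.61.

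On the right at 6 h GRM7 A was 1.27, 1.13 and 0.88 under TatNR2B9c and 1.20, 1.60 and 2.93 under placebo. GRM7 B was 2.84, 2.31 and 1.84 under TatNR2B9c and 3.20, 3.71 and 3.74 under placebo. The GRM7 B groups did not overlap and the GRM7 A groups did (no overlap for 3 of 8 receptor probes and 30.1% of all probes), and neither difference passed, at −1.23 for GRM7 B (adjusted p = 0.174) and −0.81 for GRM7 A (adjusted p = 0.26). In Cy5 alone the GRM7 B difference was −0.95 (adjusted p = 0.033), where 4.8% of all probes fell, and that of GRM7 A was −0.49 (adjusted p = 0.534).

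At 1 h the GRM7 A ratio was 0.62 to 1.23 in TatNR2B9c right cortex, 0.22 to 0.85 in placebo right cortex, 0.24 to 0.53 in TatNR2B9c left cortex and −0.01 to 0.57 in placebo left cortex. That of GRM7 B was 1.03 to 2.71, 0.34 to 1.84, 0.84 to 1.29 and 0.10 to 1.07 in the same groups. Under placebo the ratios rose with time on both sides, GRM7 A by 2.62 on the left (SE 0.40, adjusted p = 4.71e-05) and 1.36 on the right (SE 0.40, adjusted p = 0.012), and GRM7 B by 3.33 on the left (SE 0.50, adjusted p = 4.04e-05) and 2.31 on the right (SE 0.50, adjusted p = 0.00151). The right-sided call of GRM7 A rested on 2 arrays, being 0.85 (adjusted p = 0.0892) without placebo right 6 h array 3 and 1.19 (adjusted p = 0.0612) without placebo right 1 h array 3. Cy5 alone gave 0.18 for GRM7 A on the left and −0.30 on the right, and −0.56 and −0.57 for GRM7 B on the left and the right, none passing. The Cy3 signal of GRM7 B was 6.50 to 6.75 on placebo 6 h arrays and 6.82 to 9.39 on placebo 1 h arrays. Over the 24 arrays the 2 GRM7 probes followed each other with r = 0.884 in the ratio and 0.529 in Cy5 alone, a description of arrays that share groups, campaigns and reference.

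GRM8 is a further presynaptic receptor of group III. Its ratio at 6 h was 0.39, 2.01 and 1.02 in TatNR2B9c left cortex and 3.77, 3.04 and 2.92 in placebo left cortex. In Cy5 the levels were 6.93, 8.60 and 8.65 in TatNR2B9c left cortex and 9.86, 9.74 and 9.69 in placebo left cortex. The groups did not overlap on either scale. The difference was −2.10 in the ratio (SE 0.45, adjusted p = 0.00336) and −1.70 in Cy5 alone (adjusted p = 0.0057), and without TatNR2B9c left 6 h array 1, the lowest, the ratio differed by −1.73 (adjusted p = 0.0256).

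On the right at 6 h the GRM8 ratio was 1.99, 1.74 and 0.92 under TatNR2B9c and 2.55, 2.57 and 3.14 under placebo. All placebo arrays were again higher, but the difference of −1.20 (SE 0.45, adjusted p = 0.134) did not pass, while in Cy5 alone −1.29 did (adjusted p = 0.0365). At 1 h the ratios overlapped between treatments, with 0.77 to 2.15 in TatNR2B9c right cortex, −0.08 to 1.49 in placebo right cortex, 0.30 to 0.71 in TatNR2B9c left cortex and 0.14 to 1.12 in placebo left cortex. In Cy5 alone GRM8 was nevertheless lower in TatNR2B9c than in placebo left cortex at 1 h, by a log2 difference of −1.54 (adjusted p = 0.00593), and GRM7 B by −0.88 (adjusted p = 0.023), where 11.9% of all probes fell. These lower levels at 1 h on the cortex channel run beside the campaigns, and the campaign's part was not tested. Under placebo the GRM8 ratio rose with time by 2.63 on the left (SE 0.45, adjusted p = 0.000118) and 2.02 on the right (SE 0.45, adjusted p = 0.00178), against −0.53 and −0.37 in Cy5 alone on the left and the right.

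Between 6 h and 1 h under placebo the groups of all 8 receptor probes did not overlap on the left and those of 7 did not on the right, beside 64% and 59.9% of all probes. The median log2 difference of the 8 probes came to 2.07 for the left cortex and 0.93 for the right, against 0.11 and 0.05 over all probes. In Cy5 alone GRM3, GRM6, GRM7 B and GRM8 lay below 0 on both sides. GRM4 and GRM5 lay above 0 on both sides, and GRM2 and GRM7 A differed in sign between the sides. The range was −1.05 (GRM2, with disagreeing spots) to 0.79 (GRM4) on the left. On the right it was −0.57 (GRM7 B) to 1.26 (GRM4). Under TatNR2B9c the medians were 0.43 on the left and 0.23 on the right, the groups of 2 probes on the left and 3 on the right did not overlap, beside 17.7% and 27.7% of all probes, no receptor probe passed, and 0% of all probes passed on each side. At an unadjusted p under 0.05 limma called 1 receptor probe (GRM3) on the left and 2 (GRM3 and GRM5) on the right, beside 16.3% and 19.3% of all probes. Whether time acted differently under the treatments was tested on the right, where 0 of 8 receptor probes passed beside 3.44% of all probes. The interaction was −1.78 for GRM8 (adjusted p = 0.121) and −1.78 for GRM7 B (adjusted p = 0.161), the 2 receptor probes called at an unadjusted p under 0.05, beside 21.7% of all probes.

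**Figure D3:**
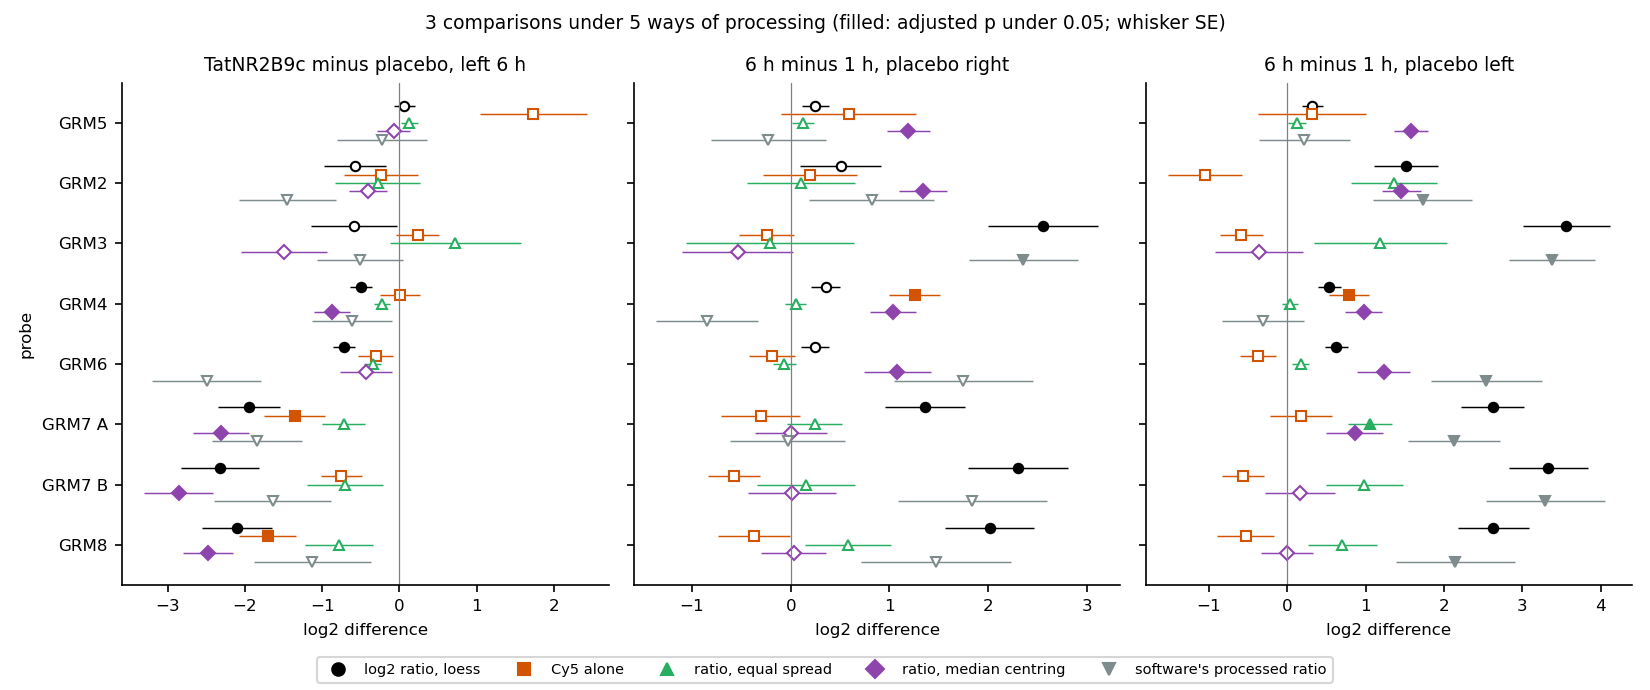
Log2 differences (horizontal axis) of the receptor probes (vertical axis) in 3 comparisons under 5 ways of processing, with SE as whiskers and filled symbols at an adjusted p under 0.05. GRM7 A, GRM7 B and GRM8 lie below 0 in all 5 ways for TatNR2B9c minus placebo in left cortex at 6 h, whereas GRM3 under placebo lies on both sides of 0 for 6 h minus 1 h.

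The median TatNR2B9c minus placebo difference of the 8 probes at 6 h came to −0.65 for the left cortex and −0.39 for the right, against −0.07 and 0.01 over all probes. On the left 5 of 8 probes fell, those of GRM4, GRM6, GRM7 and GRM8. The groups of 5 probes did not overlap, those of GRM2, GRM6, GRM7 and GRM8, beside 33.6% of all probes. GRM4 thus passed with overlap, and GRM2 did not pass though its groups were apart. The probes that did not pass stood at 0.06 for GRM5 (adjusted p = 0.778), −0.57 for GRM2 and −0.58 for GRM3. GRM2 joined the calls without placebo left 1 h array 3, so that 6 of 8 fell, beside 14% of all probes. No test between the receptor groups was made. On the right 0 of 8 passed beside 4.3% of all probes. At an unadjusted p under 0.05 the right-sided differences of GRM8, GRM7 B and GRM6 passed, 3 of 8 beside 20.8% of all probes. At 1 h 0 of 8 passed on either side, beside 0.866% of all probes on the left and 1.58% on the right, with calls at an unadjusted p under 0.05 for 2 receptor probes on the left (GRM3 and GRM2) and 0 on the right, beside 10.2% and 13.8% of all probes. That of GRM2, at 0.93, was 0.09 (limma adjusted p = 1) without the array with disagreeing spots. The groups overlapped for all 8 receptor probes on the right, beside 26.4% of all probes that did not. The difference of the treatment effect between the sides at 6 h was above 0 for all 8 probes but passed for none (smallest adjusted p = 0.922), where 0% of all probes passed. Its median was 0.42 for the 8 probes and 0.13 over all probes, so the array as a whole lay above 0 too. At 1 h 0 of 8 passed as well, and at an unadjusted p under 0.05 limma called 0 receptor probes at either time, beside 4.4% of all probes at 6 h and 1.71% at 1 h.

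Markers of cells moved with these differences. In left cortex at 6 h the mean ratio of 6 excitatory neuron markers was 1.63 to 3.03 on TatNR2B9c arrays and 3.28 to 3.76 on placebo arrays, and 3 of the 6 fell (median −1.35, with −0.66 in Cy5 alone). Inhibitory neuron markers averaged 1.08 to 1.71 under TatNR2B9c and 1.88 to 2.11 under placebo, and general neuron markers 2.38 to 3.53 and 3.54 to 3.61. Markers of meninges and choroid plexus averaged −2.10 to −1.03 and −2.76 to −2.55. Those of astrocytes overlapped, at 0.75 to 1.94 and 0.07 to 1.78. The mean of 4 neutrophil and red cell markers was −0.84 to 2.36 on TatNR2B9c arrays and −2.91 to −1.30 on placebo arrays, and 2 of the 4 rose (median 2.05, with 2.66 in Cy5 alone). Of 6 oligodendrocyte markers 2 fell (median −1.21), and of 3 precursor markers 1 fell. These counts stand beside 13.8% of all probes that fell and 24.6% that passed in either direction. The part of these cells in the lower GRM7 and GRM8 values was not tested. In cortex biopsies fewer cells of a type and less RNA per cell cannot be told apart. Under placebo 6 of 6 excitatory neuron markers on the left and 5 of 6 on the right had a higher ratio at 6 h than at 1 h, with medians of 2.51 and 1.88, against 0.04 and 0.11 in Cy5 alone. Other lists moved with time as well. Of 6 oligodendrocyte markers 5 rose on the left and 3 on the right (medians 1.92 and 1.39, with −0.15 and −0.44 in Cy5 alone). Of 4 neutrophil and red cell markers 2 fell on each side (medians −1.60 and −1.70, with −0.86 and −1.22 in Cy5 alone), and their mean ratio was −2.91 to −1.30 at 6 h and −0.76 to −0.59 at 1 h on the left. Of 4 markers of meninges and choroid plexus 3 fell on each side, and of 3 lymphocyte markers 2. The placebo counts stand beside 54.2% of all probes that passed in either direction on the left and 40.9% on the right. Of all probes 31.1% rose on the left and 21.7% on the right. The part of these cells in the receptors' ratios was not tested. The receptor ratios also followed the spread of all log2 ratios on an array, with r over the 24 arrays of 0.90 for GRM7 B, 0.888 for GRM8, 0.826 for GRM3 and 0.404 for GRM2, where arrays of a campaign share that spread.

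Ischemic right and non-ischemic left cortex were compared in the 12 animals, the question the stroke model poses first. GRM3 was higher on the right in 8 of 12 animals, GRM2, GRM4, GRM7 A, GRM7 B and GRM8 in 7 and GRM5 and GRM6 in 5. Over all animals the right minus left difference was 0.47 for GRM3 (95% interval −0.11 to 1.05), 0.32 for GRM7 B (−0.20 to 0.85), 0.23 for GRM8 (−0.24 to 0.70) and 0.22 for GRM2 (−0.20 to 0.65). The GRM2 value came from 1 animal, placebo animal 3 of 1 h at 2.57, and the other 11 averaged 0.01, from −0.26 to 0.25. It was −0.03 for GRM4 (−0.18 to 0.12), −0.07 for GRM5 (−0.21 to 0.08), −0.07 for GRM6 (−0.22 to 0.08) and −0.07 for GRM7 A (−0.49 to 0.35). The intervals come from the fit with 1 mean a group and no term for the animal, so they leave the pairing of sides unused. All 8 intervals include 0. For GRM3 a right side higher by up to 1.05 remains inside. The interval of GRM6 comes from signals that were mostly not well above background in either dye and does not show that its sides were alike.

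Within the sets, the pooled comparison and each of the 4 had 0 of 8 probes past the threshold by limma. At an unadjusted p under 0.05 there were 0 receptor probes in TatNR2B9c animals at 6 h or 1 h and 0 pooled, beside 3.33%, 4.58% and 3.83% of all probes. In placebo animals at 6 h there were 2 beside 3.96%, GRM7 A at −1.05 (limma adjusted p = 1) and GRM6 at −0.36 (adjusted p = 1). In placebo animals at 1 h there was 1 beside 1.31%, GRM2 at 0.92 (limma adjusted p = 1), which rests on the array with disagreeing spots. Both sides of an animal shared a slide in 9 of 12 animals, the exceptions being the 3 placebo animals at 6 h.

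**Figure D4:**
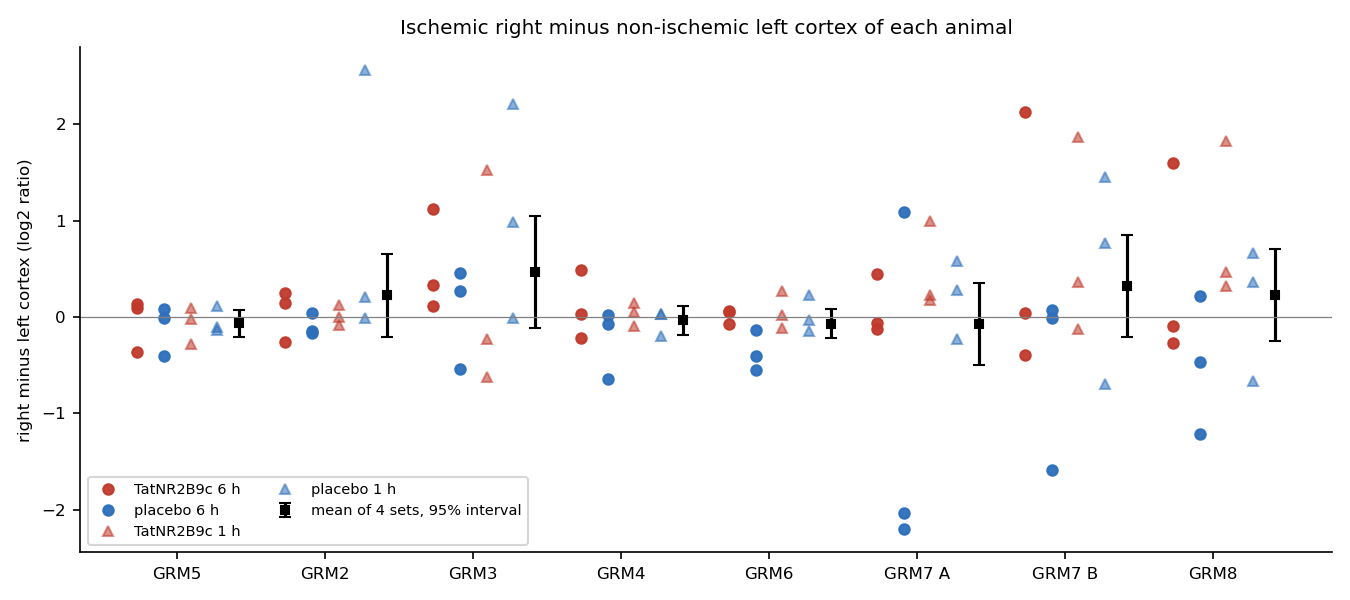
Right minus left difference in log2 ratio (vertical axis) of each receptor probe in the 12 animals, with TatNR2B9c in red and placebo in blue, circles for 6 h and triangles for 1 h. Black squares give the mean of the 4 sets with its 95% interval, from the fit with no term for the animal. The points fall on both sides of 0 for every probe, and GRM3 is above 0 in 8 of 12 animals.

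The order of the 8 groups by mean ratio was headed by placebo left cortex at 6 h for GRM2, GRM4, GRM6, GRM7 A, GRM7 B and GRM8, by placebo right cortex at 6 h for GRM3 and by TatNR2B9c left cortex at 6 h for GRM5. Of 7 neighbouring steps in that order 7 overlapped for GRM3, GRM4, GRM5 and GRM7 A and 6 for the other probes. For GRM2, GRM7 B and GRM8 the step without overlap lay after the second group, below both placebo 6 h groups, and for GRM6 after the first. In Cy5 alone the order was another one, headed by placebo left cortex at 1 h for GRM3, GRM6, GRM7 B and GRM8. The same group headed GRM2 through the array with disagreeing spots, and without that array it came at rank 3 of 8 with a mean of 7.01, after TatNR2B9c left cortex at 1 h (7.35) and placebo right cortex at 6 h (7.06).

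The genes that carry the receptors' signals were read through 5 lists, of which 50 genes had a kept probe. Under placebo 32 of the 50 rose and 5 fell at 6 h relative to 1 h in the left cortex, 74% in all beside 54.2% of all probes, and 26 rose and 5 fell in the right cortex, 62% beside 40.9%. CACNA1A, the pore of the presynaptic P/Q-type calcium channel that group II and III receptors restrain, was higher at 6 h by 2.58 on the left (SE 0.27, adjusted p = 2.96e-06) and by 2.34 on the right (SE 0.27, adjusted p = 1.03e-05). CABP1, a neuronal calcium-binding protein, was higher by 2.75 (adjusted p = 7.64e-06) on the left and 2.90 (adjusted p = 1.03e-05) on the right. GNG3, a G protein gamma subunit of neurons, was higher by 3.44 on the left (adjusted p = 1.39e-05), and KCNJ9, a subunit of the potassium channel opened by Gi/o proteins, by 2.29 on the right (adjusted p = 2.52e-05). These genes also lay above 0 in Cy5 alone, at 0.99 and 1.84 for CACNA1A, 1.58 and 2.30 for CABP1 (left and right), 0.84 for GNG3 and 1.54 for KCNJ9. The risen list genes as a whole, with these counted in, were split. Of the 32 that rose on the left 14 were above 0 in Cy5 alone and 18 below, and of the 26 on the right 14 were above and 12 below.

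By list, the left and right placebo counts were as follows. Of 16 genes of Gi/o signalling, 12 rose and 2 fell on the left and 11 rose and 2 fell on the right. Of 9 genes of Gq signalling, 6 rose and 0 fell on the left and 3 rose and 2 fell on the right. Of 8 postsynaptic scaffold genes 5 rose and 1 fell on each side, and HOMER1, which ties GRM5 to its partners, was among those that rose, by 1.64 on the left and 1.58 on the right, with −0.69 and −0.20 in Cy5 alone. The 1 that fell was HOMER2, at −0.79 on the left and −0.78 on the right, with 0.58 and 0.37 in Cy5 alone. Of 11 regulators of receptor number and coupling 5 rose and 1 fell on the left and 4 rose and 0 fell on the right. Of 6 genes for supply and removal of glutamate and NAAG 4 rose and 1 fell on the left and 3 rose and 0 fell on the right.

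With TatNR2B9c against placebo in left cortex at 6 h, 3 of the 50 rose and 9 fell, 24% beside 24.6% of all probes. In Cy5 alone 2 of the 3 were above 0 and 7 of the 9 below. In the Gi/o list 2 rose and 5 fell. CACNA1A was lower by −1.64 in log2 (SE 0.27, adjusted p = 0.000706), ADCY8, a calcium-stimulated adenylyl cyclase, by −1.35 (adjusted p = 0.00246) and KCNJ9 by −1.43 (adjusted p = 0.00292), with −0.38, 0.59 and −0.89 in Cy5 alone. On the right at 6 h 1 rose and 3 fell, 8% beside 4.3%, with KCNJ9 at −1.32 (adjusted p = 0.0178), CACNA1A at −0.99 (adjusted p = 0.0434) and SLC1A2, the astrocytic glutamate transporter, at 2.04 (adjusted p = 0.0194), and with −1.53, −0.86 and 2.87 in Cy5 alone. SLC1A2 was higher under TatNR2B9c on the left at 6 h too, by 1.81 (SE 0.47, adjusted p = 0.0103) and by 3.17 in Cy5 alone. SLC1A2 was also the 1 gene of the 50 that passed on the right at 1 h, higher under TatNR2B9c by 2.18 (SE 0.47, adjusted p = 0.0257) and by 3.69 in Cy5 alone. It is counted among the astrocyte markers as well, of which it was 1 of 8. In the test of treatment by time on the right KCNJ9 was at −1.69 (adjusted p = 0.0368) and ADCY8 at −1.49 (adjusted p = 0.0431), the 2 of 50 that passed, 4% beside 3.44% of all probes. No gene of the 50 passed between right and left cortex or under TatNR2B9c between 6 h and 1 h.

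The genes with the most similar pattern over the 24 arrays were picked by Pearson r with each receptor's brightest kept probe. For GRM3 they were RASGEF1A (r = 0.978), ELAVL4 (0.974) and MAST1 (0.971). For GRM7 B they included WDR17 (0.978) and CPNE9 (0.975), and for GRM8 they were WDR17 (0.978), CSMD3 (0.971) and CLVS1 (0.97). WDR17 thus headed both, and GRM7 B and GRM8 followed each other with r = 0.98. For GRM2 the nearest were KLHL17 (0.977), CASC3 (0.976) and PAQR4 (0.973), for GRM4 MATN1 (0.941), KCNK4 (0.939) and CD7 (0.939), for GRM6 GUSB (0.925), TRMT2B (0.891) and C6orf182 (0.885), and for GRM5 TOM1L2 (0.882), GATAD2B (0.871) and CGB2 (0.867). These values describe 24 arrays that share groups, campaigns and one reference RNA. Those of GRM2 include placebo left 1 h array 3, with disagreeing spots, where its ratio was −2.44 against −0.04 to 0.81 on the other arrays. An r without that array was not computed, so the genes named for GRM2 may rest on it. In Cy5 alone the likeness of RASGEF1A to GRM3 was 0.0798 and that of KLHL17 to GRM2 0.392, while WDR17 and GRM8 kept 0.878 and CLVS1 and GRM8 0.928.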

How the data were processed

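Gene expression in 24 cortex samples was read with Agilent arrays of 2 colours, 1 for each sample, with cortex RNA in Cy5 and a universal reference RNA in Cy3 and no dye swap, per the labels. The deposited intensity values are mean spot brightness and median local background on a linear scale, per the file headers, beside processed intensities that the software had background-subtracted and dye-normalised. The deposited log10 ratio, per the file headers, divides the processed cortex signal by the processed reference signal, and the authors' series matrix repeats it within 0.005. The deposited flags mark spots as well above background, saturated or not uniform. The file headers name Agilent Feature Extraction 10.7.3.1 for the TatNR2B9c arrays, version 10.5.1.1 for placebo at 6 h and version 9.5.3.1 for placebo at 1 h; the submitters' processing notes give 10.7.3.1 alone.

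Here the background was corrected with normexp (offset 50), each array was normalised by loess, control spots (1417 of 41851) and non-uniform spots were left out, and the 2 spots of a probe were averaged. A probe was kept where some group had it well above background in Cy5 on all 3 arrays, which left 17213 of 20217, all 8 receptor probes among them. Groups were compared in 16 comparisons by the two-sided moderated test of limma 3.58.1 (R 4.3.3), fitted to all 24 arrays with 1 mean a group. A probe passed at an adjusted p under 0.05 (Benjamini-Hochberg, all kept probes). The data.table package was version 1.17.8. The code was tested on simulated data. The members and lists were chosen with earlier results of these data known. Pathway genes were read by their brightest kept probe, and at most 3 passing genes a comparison with the smallest adjusted p were named. HOMER1, HOMER2 and, for left cortex at 6 h, SLC1A2 were named in addition, chosen after their values were seen. Names come from the array files, where the GRM5 and GRM7 probes bear theirs in the oldest of 3 annotations only. The number of arrays limits the precision. In a check of pairing, arrays of the same number deviated together (r over 0.1) in 6 of 12 pairs of sides, 4 of 12 of treatments and 6 of 12 of times. The side pairing rests on the shared animal, and the numbers were not taken to pair treatments or times. The 3 genes most like each receptor over the arrays were named, except 1 for GRM7 that is not reported here.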

Additional observations from a re-analysis of the deposited data

How the results depend on the processing

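The counts of receptor probes past the threshold were 11 for 6 h minus 1 h (4 comparisons), 5 for TatNR2B9c minus placebo (4 comparisons) and 0 for right minus left in sets, pooled right minus left and interactions, which stayed at 0 under all settings and with each of the 24 arrays left out. For 6 h minus 1 h the count was 2 in Cy5 alone, 1 at equal spread of the arrays and 7 in both the processed signals and the series matrix. For TatNR2B9c minus placebo it was 3 with probes above background on all arrays, 1 at equal spread, 0 fitted on the groups of the comparison only, 19 under median centring (14 lower, 5 higher; beside 66.9% and 77% of all probes on the right and left at 1 h, and 3.2% and 19.1% at 6 h) and 2 in the processed signals and in the series matrix, both there higher (GRM3 and GRM7 B, left 1 h). With 1 array left out it was 4 to 6, and 10 to 13 for 6 h minus 1 h. The replicate block gave 11, 5, 0, 0 and 0, the same counts.

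Of 248 values of passing probes under other settings 170 kept their call, 50 kept the direction only and 28 were turned. In Cy5 alone the placebo 6 h minus 1 h value was −1.05 for GRM2 (left, with disagreeing spots on 1 array), −0.37 for GRM6 (left), −0.58 and −0.24 for GRM3, −0.56 and −0.57 for GRM7 B and −0.53 and −0.37 for GRM8 (left and right), and −0.30 for GRM7 A (right), and TatNR2B9c minus placebo on the left at 6 h was 0.0096 for GRM4. GRM3 was −0.21 (right) at equal spread and −0.36 and −0.54 (left and right) under median centring, where GRM8 was −0.0034 (left). GRM4 (left) was −0.31 and −0.32 and GRM7 A (right) −0.031 and −0.030 in the processed signals and the series matrix. Median centring moved the median of all probes, to −0.81 for placebo left and −0.71 for placebo right 6 h minus 1 h, and the processed signals to −0.32 and −0.35. The cause of these turns was not tested. Of 96 values with 1 array left out 91 kept their call, and the 5 others were GRM4 (left 6 h) and GRM7 A (placebo right), given above. GRM6 is limited by its signal, which was well above background on 11 of 24 arrays in Cy5 and 3 in Cy3. GRM2 is limited by placebo left 1 h array 3. A setting chosen after seeing the data, Cy5 alone without that array, gave 1 call for 6 h minus 1 h and 5 for TatNR2B9c minus placebo, and placebo 6 h minus 1 h of −0.072 for GRM2, −0.22 for GRM6, −0.49 for GRM3, −0.50 for GRM7 B and −0.56 for GRM8 on the left.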
